A study of Homo sapiens with 9 samples.

Results

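*BASP1*, *MARCKS* and *MARCKSL1* encode membrane-bound actin regulators, and they were taken by symbol from a gene-level RNA-seq count table, as 3 of its 59452 genes. The set was chosen because *BASP1* was known to have one of the deepest falls in suspended cells, so the values of the 3 genes in suspended against attached cells are given as a description, without a test. The cells were MDA-MB-453, a human breast cancer cell line with a luminal, androgen receptor-expressing profile. They were kept for 48 h in one of 3 conditions, with 3 libraries each. Attached cells received the DMSO vehicle, and cells in forced suspension culture on poly-HEMA, a coating that prevents attachment, received either the vehicle or 10 µM AT0174, a small molecule inhibitor of the tryptophan-catabolizing enzymes TDO2 and IDO1. The comparison of suspended with attached vehicle cells addressed what changes on loss of anchorage, and that of AT0174 with vehicle in suspension addressed what the inhibitor changes. Both used the same 3 suspended vehicle libraries, all libraries came from 1 cell line, and AT0174 was not measured in attached cells.

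The proteins of this family sit on the inner face of the plasma membrane, where they are held by an N-terminal myristate and by stretches of basic residues that bind the acidic lipid PIP2. By covering PIP2 they limit its access to actin regulators and phospholipase C, and phosphorylation by protein kinase C or binding of calmodulin releases them. BASP1 (brain acid soluble protein 1) was first known from growing axons, MARCKS is the widely expressed founding substrate of protein kinase C, and MARCKSL1 (MARCKS-like 1) is its smaller relative. BASP1 also acts in the nucleus as a corepressor of the transcription factor WT1.

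The myristate of these proteins is attached to a glycine encoded by the second codon, and the first bases of the 3 coding sequences are shown because that codon is the feature they have in common. Each line holds 30 bases of GENCODE transcripts on GRCh38, with the start codon and the second codon in capitals.
BASP1, chr5:17275217-17275246, plus strand: ATGGGAggcaagctcagcaagaagaagaag
MARCKS, chr6:113857746-113857775, plus strand: ATGGGTgcccagttctccaagaccgcagcg
MARCKSL1, chr1:32336004-32336033, minus strand: ATGGGCagccagagctccaaggctccccgg
A second codon of the form GGN was present in all 3 genes and in 1544 of 19508 coding genes, or 7.91%. Of these 30 bases, *MARCKS* and *MARCKSL1* shared 19, *BASP1* and *MARCKS* 17, and *BASP1* and *MARCKSL1* 15. In alignments of the coding sequences, *MARCKS* and *MARCKSL1* matched at 389 of 585 bases aligned without a gap (66.5%), *BASP1* and *MARCKS* at 428 of 674 (63.5%) and *BASP1* and *MARCKSL1* at 314 of 563 (55.8%). With gaps counted, identity was 39.1%, 42.7% and 44.7% in the same order, so that the order of the pairs depended on how gaps were treated. Whether these matches exceed those of unrelated sequences of like base content was not tested. The coding sequences were rich in G and C. That of *MARCKS* had 996 bases with 74.7% GC, at percentile 99.6 of all coding genes. That of *BASP1* had 681 bases with 69.5% GC, at percentile 97.4, and that of *MARCKSL1* had 585 bases with 63.6% GC, at percentile 86.9, where the median gene had 52.9%.

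On GRCh38, *BASP1* (ENSG00000176788) lies at chr5:17065598-17276843 on the plus strand, *MARCKS* (ENSG00000277443) at chr6:113857345-113863475 on the plus strand and *MARCKSL1* (ENSG00000175130) at chr1:32333839-32336233 on the minus strand. The coding bases of *BASP1* lay in 1 exon and those of *MARCKS* and *MARCKSL1* in 2 each.

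The 9 libraries held between 36649997 and 48019126 estimated counts, so that 3 counts, the limit that a count of 0 allows, corresponded to 0.0625 to 0.0819 CPM, counts scaled to the TMM-adjusted library size. Of the 59452 genes, 15528 had enough counts to be tested, all 3 of these genes among them. All 8 luminal breast epithelial markers were measured, with a summed level of 4269 to 4462 TPM, a unit that also scales by transcript length, in attached, 4877 to 4968 TPM in suspended vehicle and 4704 to 5083 TPM in AT0174 libraries. None of the 4 endothelial, 4 leukocyte or 4 neuronal markers had enough counts, and their summed levels were at most 0.264 TPM in any library. Of 6 fibroblast markers only *COL1A1* was tested. It stood at 60.2 TPM in attached, 54.6 TPM in suspended vehicle and 53.0 TPM in AT0174 libraries, and fell by 0.28 on the log2 scale in suspension (SE 0.046, edgeR adjusted p = 0.00182). Its part in the values of the 3 genes was not tested. The defining fibroblast genes *DCN* and *LUM* had 0 counts in every library, and the sum was 55.4 to 66.1 TPM in attached, 53.8 to 56.4 TPM in suspended vehicle and 51.6 to 54.5 TPM in AT0174 libraries. In bulk RNA, fewer cells expressing a gene and less of its RNA in each cell cannot be told apart.

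The 3 genes stood at very different levels in attached cells, and only *BASP1* was far from its attached level after suspension. Per length, *MARCKSL1* was the highest, with 264 ± 14.5 TPM (SD, n = 3), which placed it at percentile 96.7 of the tested genes. *MARCKS* had 21.9 ± 1.24 TPM, at percentile 61.3, and *BASP1* had 4.78 ± 0.791 TPM, at percentile 34.9. Of the TPM of the 3 genes together, *BASP1* made up 1.65% ± 0.22 in attached cells, 0.175% ± 0.0252 in suspended vehicle cells and 0.228% ± 0.0589 in suspended cells with AT0174. The ratio of *MARCKSL1* to *MARCKS* in TPM was 12.02 ± 0.387 in attached cells, 13.5 ± 0.29 in suspended vehicle cells and 13.1 ± 0.16 with AT0174. The ratio of *MARCKS* to *BASP1* was 4.67 ± 0.782, 40.1 ± 6.33 and 32.5 ± 8.41 in the same order.

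*BASP1* had 4.94, 6.75 and 5.49 CPM in the 3 attached libraries, from 189, 244 and 213 estimated counts. The suspended vehicle libraries held 0.698, 0.521 and 0.683 CPM, from 27, 23 and 30 counts. Those with AT0174 held 1.14, 0.645 and 0.839 CPM, from 55, 27 and 37 counts. All 6 suspended libraries were below all attached ones, and the lowest AT0174 library lay among the suspended vehicle libraries. Every suspended library remained above the level that 3 counts would give. The log2 fold change of suspended against attached vehicle cells was −3.17 (SE 0.22), or 9.01-fold lower. It was the second lowest among the 12522 tested genes with a mean of at least 50 counts, and number 11 from the bottom among all 15528. Pooled over the libraries of a group, 646 counts gave 5.71 CPM in attached cells (95% exact Poisson interval 5.27 to 6.16), 80 counts gave 0.631 CPM in suspended vehicle cells (0.501 to 0.786) and 119 counts gave 0.886 CPM with AT0174 (0.734 to 1.06). These intervals cover counting error only.

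*MARCKS*, the founding member, had 68.3, 66.8 and 63.2 CPM in attached libraries. In suspended vehicle libraries it had 62.0, 65.4 and 66.2 CPM, and with AT0174 69.6, 66.6 and 67.4 CPM. Attached libraries overlapped with both suspended groups, whereas the AT0174 libraries lay just above those with vehicle. The log2 fold change of suspended against attached vehicle cells was −0.03 (SE 0.041), with a 95% interval of −0.12 to 0.05, against a median of the absolute change over all tested genes of 0.124.

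*MARCKSL1* had 265, 277 and 255 CPM in attached libraries, 285, 295 and 292 CPM in suspended vehicle libraries and 306, 289 and 299 CPM with AT0174. All suspended libraries were above all attached ones, and the suspended groups overlapped with each other. Its log2 fold change in suspended against attached vehicle cells was 0.13 (SE 0.036), or 1.096-fold, opposite in sign to that of *BASP1*. The groups did not overlap for 2 of the 3 genes in this comparison, where 38.2% of all tested genes had groups that did not overlap, and nothing is read from this count because the set was chosen on the same contrast.

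**Figure D1:**
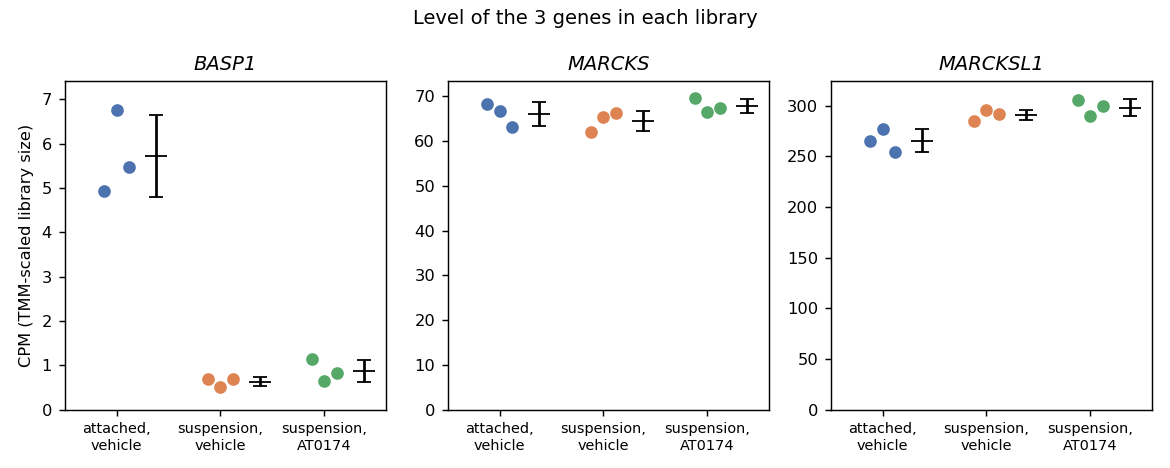
Level of *BASP1*, *MARCKS* and *MARCKSL1* in each library, in CPM on linear axes that start at 0; points are libraries, and the bar beside them gives the mean and SD of the 3 libraries of a group. *BASP1* was 5.73 ± 0.929 CPM attached, 0.634 ± 0.0978 CPM suspended with vehicle and 0.874 ± 0.249 CPM suspended with AT0174, *MARCKS* was between 62.0 and 69.6 CPM and *MARCKSL1* between 255 and 306 CPM in all libraries.

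**Figure D2:**
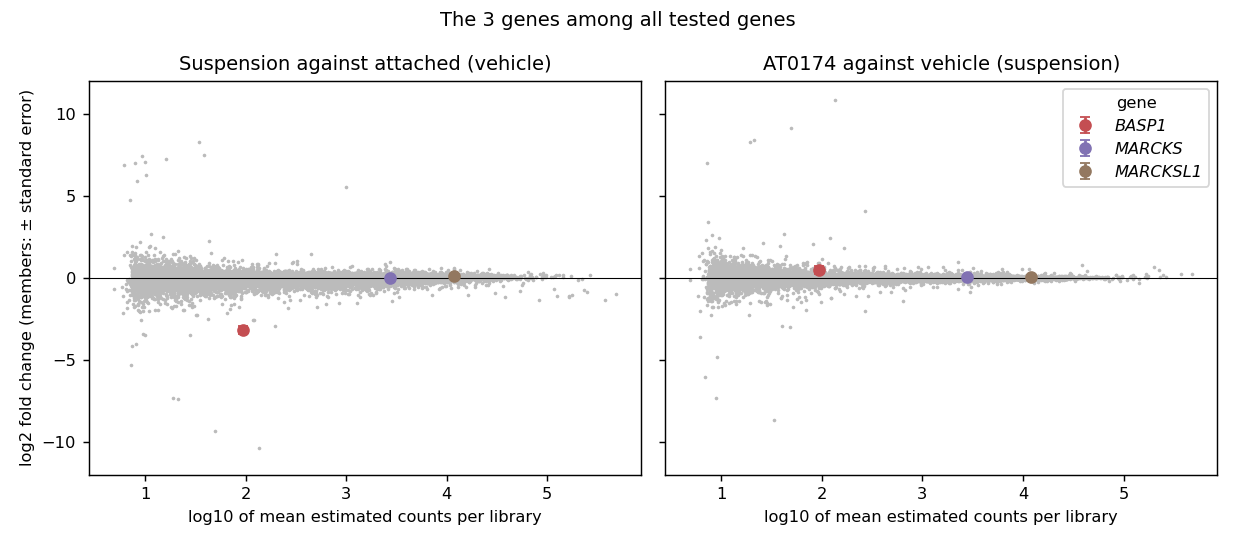
Log2 fold change against the log10 of the mean estimated counts per library for all 15528 tested genes (grey), with the 3 genes in color and their standard errors, for suspended against attached vehicle cells (left) and AT0174 against vehicle in suspension (right). *BASP1* lies at −3.17 on the left and 0.47 on the right, and *MARCKS* and *MARCKSL1* lie close to 0 in both panels.

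Treatment of suspended cells with AT0174 gave no call for any of the 3 genes. With edgeR's quasi-likelihood test over all 15528 genes, 121 genes, or 0.779%, passed an adjusted p of 0.05, 81 of them higher (0.522%) and 40 lower (0.258%). Of *BASP1*, *MARCKS* and *MARCKSL1*, 0 passed, 0 had an unadjusted p below 0.05, and 0 passed with DESeq2 or limma-voom. The log2 fold change of *BASP1* was 0.47 (SE 0.244, edgeR adjusted p = 0.611). The 95% interval reached from −0.06 to 1.00, which is from 0.962-fold to 2.01-fold of the vehicle level. *MARCKS* had a log2 fold change of 0.07 (SE 0.041, edgeR adjusted p = 0.653; 95% interval −0.02 to 0.16), and *MARCKSL1* of 0.04 (SE 0.036, edgeR adjusted p = 0.845; 95% interval −0.04 to 0.11). For *MARCKS* alone the AT0174 and vehicle libraries did not overlap, as for 15.4% of all tested genes.

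The annotation holds 3 transcripts of *BASP1*, of which the leading 2 start at different first exons and share the exon that carries the coding sequence. ENST00000322611 (1807 bases) starts with an exon of 180 bases at chr5:17217631-17217810, and ENST00000616743 (1711 bases) with an exon of 75 bases at chr5:17216823-17216897. The starts are 808 bases apart. ENST00000606445 (401 bases) had 0 counts in every library. The 250 bases before the ENST00000616743 start are shown because estimated counts were assigned to that transcript mainly in suspended vehicle libraries. Salmon, the quantification software, divides reads between transcripts that share an exon, and use of either start was not tested. The sequence is from GRCh38, plus strand, with GGGCGG (the GC box) on either strand in capitals.
ENST00000616743, chr5:17216573-17216822: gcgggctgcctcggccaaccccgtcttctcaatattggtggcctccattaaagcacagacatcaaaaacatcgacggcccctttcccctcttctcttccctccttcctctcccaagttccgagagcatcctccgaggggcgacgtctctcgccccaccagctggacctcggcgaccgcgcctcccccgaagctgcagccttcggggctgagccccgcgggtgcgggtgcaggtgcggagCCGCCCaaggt
The GC content of this stretch was 65.6%. Both strands of the RefSeq promoter windows of the 3 genes (250 bases before to 50 after the start, GRCh38.p14) were searched for 6 motifs. For *BASP1* this is the window of the ENST00000616743 start; the start of ENST00000322611, which held most of the attached *BASP1* counts, was not searched. GGGCGG, present in 45.0% of 35116 promoters, was found 1 time for *BASP1*, 1 time for *MARCKS* and 7 times for *MARCKSL1*, and matches may overlap. None of the 3 windows held CACGTG (the MYC-MAX E-box, 7.3% of promoters), GCGTG (the AHR core, 36.5%), TGANTCA (AP-1, 7.7%), GGAATG (TEAD, 14.0%) or TATAAA (11.5%). These matches describe letters in a window and not sites in use.

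ENST00000322611 held 100%, 98.3% and 100% of the *BASP1* counts in the attached libraries. In suspended vehicle libraries it held 69.0%, 0% and 100%, and ENST00000616743 held the rest, 8.37, 23 and 0 estimated counts. With AT0174 it held 100% in all 3 libraries. The suspended vehicle libraries thus spanned the full range, on at most 30 counts each, and 1 of them matched the AT0174 libraries. The share of ENST00000322611 was 43.7 percentage points higher with AT0174 (exact permutation test, two-sided, p = 0.4). Shares tied at 100% in both groups kept the test from giving a smaller p, so it cannot decide whether the share differed. Without ties, 0.1 is the smallest p that 3 against 3 libraries allow. Without suspended vehicle replicate 2 the difference was 15.5 points. The annotation has 1 transcript each for *MARCKS* (4296 bases) and *MARCKSL1* (1546 bases).

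**Figure D3:**
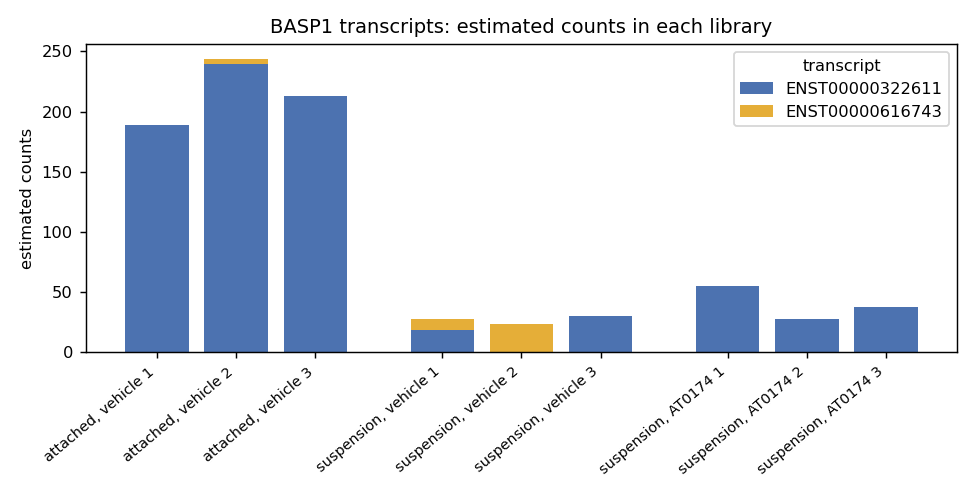
Estimated counts of *BASP1* transcripts ENST00000322611 and ENST00000616743 in each library, stacked from 0, not scaled for library size. ENST00000616743 appears in 1 attached and 2 suspended vehicle libraries and holds all 23 counts of suspended vehicle replicate 2.

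Gene models that could share reads with these genes had few counts. The antisense gene *BASP1-AS1*, which overlaps *BASP1* on the opposite strand, had 6, 2 and 4 counts in attached, 1, 0 and 1 in suspended vehicle and 0, 1 and 1 in AT0174 libraries. The pseudogenes *BASP1P1* and *MARCKSL1P1* had 0 counts in every library, and *MARCKSL1P2* had at most 4. The nearest gene to *MARCKSL1* is *HDAC1*, 203 bases away on the other strand, with 3231 to 3891 counts per library. Its log2 fold change was −0.11 in suspension (edgeR adjusted p = 0.0771) and 0.03 with AT0174. The gene models on both sides of *MARCKS* had 0 counts throughout.

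Lists were made of genes that act on these proteins or on the lipid they cover. They also held actin regulators, other protein kinase C substrates and genes linked to the nuclear role of BASP1. The tested genes of these lists had log2 fold changes between −0.44 and 0.48 in suspended cells. Of 69 genes in 7 lists, 58 were tested, and 16 passed the test in suspended against attached cells, 10 higher and 6 lower, or 27.6%, beside 21.2% of all tested genes. Their median log2 fold change was 0.007, beside 0.000 for all tested genes. With AT0174, 3 of the 58 passed, or 5.17%, beside 0.779% of all tested genes.

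Of the kinases that phosphorylate MARCKS proteins, protein kinase C and ROCK, 8 of 11 were tested, and 2 fell in suspension. That was 25% called, beside 21.2% of all tested genes. *ROCK2* had 10.9, 11.1 and 11.9 CPM attached and 9.46, 9.25 and 8.90 CPM suspended, without overlap, and fell by 0.29 on the log2 scale (SE 0.078, edgeR adjusted p = 0.019). *ROCK1* fell by 0.16 (SE 0.037, edgeR adjusted p = 0.0101). *PRKCA*, the classical isoform, had a log2 fold change of −0.44 that did not pass (SE 0.15, edgeR adjusted p = 0.0522). Of the 8 kinases, 3 passed in suspension with DESeq2 and 2 with limma-voom. With AT0174, 0 of the 8 passed, beside 0.779% of all tested genes (1 at an unadjusted p below 0.05, 0 with DESeq2 or limma-voom). Of the 3 calmodulin genes, 1 was called in suspension, or 33.3% beside 21.2% of all tested genes. It was *CALM2*, which rose by 0.14 (SE 0.031, edgeR adjusted p = 0.00991). With AT0174 0 of the 3 passed, beside 0.779% of all tested genes (1 at an unadjusted p below 0.05, 0 with DESeq2 or limma-voom). With counts rebuilt from TPM, *ROCK1*, *ROCK2* and *CALM2* missed the threshold (adjusted p = 0.209, 0.246 and 0.077), and *ROCK2* also did without attached replicate 3 (0.0761) and without suspended vehicle replicate 2 (0.0561) or 3 (0.0662), all with edgeR. Of the 4 enzymes that expose and myristoylate the N-terminal glycine, *METAP1*, *METAP2*, *NMT1* and *NMT2*, 0 passed in suspension (1 at an unadjusted p below 0.05). With AT0174 0 of the 4 passed as well (0 unadjusted), and DESeq2 and limma-voom gave 0 in both comparisons. Of all tested genes, 21.2% passed in suspension and 0.779% with AT0174.

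Among 14 tested genes of PIP2 synthesis and breakdown, 2 rose and 4 fell in suspension, or 42.9% called beside 21.2% of all tested genes. *PLCB1*, a phospholipase C that cleaves PIP2, had 16.6, 17.0 and 16.5 CPM attached, 23.2, 23.3 and 20.9 CPM suspended with vehicle and 27.4, 26.8 and 26.8 CPM with AT0174. The 3 groups did not overlap. It rose by 0.43 in suspension (SE 0.052, edgeR adjusted p = 0.000254) and was a further 0.27 higher with AT0174 (SE 0.049, edgeR adjusted p = 0.0253). Other phospholipase C genes fell, *PLCG1* by 0.27 (SE 0.046, edgeR adjusted p = 0.00204), *PLCD3* by 0.25 (adjusted p = 0.00407), *PLCB4* by 0.12 (adjusted p = 0.0215) and *PLCB3* by 0.11 (adjusted p = 0.0319). *SYNJ2*, a PIP2 phosphatase, rose by 0.17 (edgeR adjusted p = 0.0327). The PIP2-producing kinases *PIP5K1A*, *PIP5K1B* and *PIP5K1C* had log2 fold changes of −0.02, 0.06 and −0.07, none of which passed. Their adjusted p were 0.707, 0.771 and 0.29 with edgeR. The call of *PLCB1* with AT0174 was lost without any single library except suspended vehicle replicate 2 (adjusted p up to 0.114), those of *PLCB4* and *SYNJ2* in suspension in 4 of 6 such fits each (up to 0.0764 and 0.12), and that of *PLCB3* in all 6 (up to 0.133). With counts rebuilt from TPM only *PLCG1* of the 6 genes called in suspension still passed, and *PLCB1* passed in neither comparison (adjusted p = 0.248 and 0.341).

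Of 24 tested actin regulators listed as regulated by PIP2, 4 rose in suspension and 20 did not pass. That was 16.7% called beside 21.2% of all tested genes, and 5 passed with DESeq2 and 5 with limma-voom. *GSN* (gelsolin, which severs filaments) had 50.8, 55.3 and 50.5 CPM attached and 63.5, 63.5 and 64.2 CPM suspended, and rose by 0.29 (SE 0.044, edgeR adjusted p = 0.00122). *DIAPH3*, a formin, rose by 0.25 (edgeR adjusted p = 0.00473), *VCL* by 0.16 (adjusted p = 0.00285) and *EZR* (ezrin, which links membrane and actin) by 0.12 (adjusted p = 0.0419). *VCL* (vinculin, of adhesion sites) had 133, 133 and 130 CPM attached, 148, 148 and 145 CPM suspended with vehicle and 116, 115 and 117 CPM with AT0174, the lowest of the 3 groups. It fell by 0.34 with AT0174 (SE 0.028, edgeR adjusted p = 3.74e-05), the only 1 of these 24 that passed there. That was 4.17% called beside 0.779% of all tested genes. With counts rebuilt from TPM, *VCL* and *EZR* did not pass in suspension (edgeR adjusted p = 0.147 and 0.0701), and *EZR* was also lost without any single library except suspended vehicle replicate 3 (up to 0.124).

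*GAP43*, the axonal protein that shares the membrane behavior of BASP1 and MARCKS, had 0 counts in every library. Of the 6 listed protein kinase C substrates of the membrane cortex, *GAP43* included, only *ADD1* and *AKAP5* were tested. Of these 2, 1 passed in each comparison, or 50%, beside 21.2% of all tested genes in suspension and 0.779% with AT0174. *AKAP5*, an anchor that also binds PIP2 and calmodulin, had 87.4, 84.6 and 80.8 CPM attached, 116, 113 and 112 CPM suspended with vehicle and 100.9, 91.4 and 100.5 CPM with AT0174. It rose by 0.43 in suspension (SE 0.044, edgeR adjusted p = 6.21e-05) and fell by 0.22 with AT0174 (SE 0.043, edgeR adjusted p = 0.0336). The suspended vehicle libraries enter both values, and the fall with AT0174 did not pass in any of the 6 fits that left out 1 library (adjusted p 0.061 to 0.129) or with counts rebuilt from TPM (0.428). Among the 4 genes listed for the nuclear role of BASP1, *WT1* had too few counts to be tested. Of the 3 tested, 2 passed in suspension, or 66.7%, beside 21.2% of all tested genes. *MYC*, whose activity BASP1 is known to restrain, had 60.0, 58.4 and 53.5 CPM attached and 78.4, 83.4 and 77.9 CPM suspended, and rose by 0.48 (SE 0.046, edgeR adjusted p = 4.38e-05). *PHB*, a corepressor with BASP1, rose by 0.11 (edgeR adjusted p = 0.049991), at the edge of the threshold, and did not pass in any of the 6 fits that left out 1 library (0.0633 to 0.15). With AT0174, 0 of these 3 passed, beside 0.779% of all tested genes (1 at an unadjusted p below 0.05, 0 with DESeq2 or limma-voom).

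**Figure D4:**
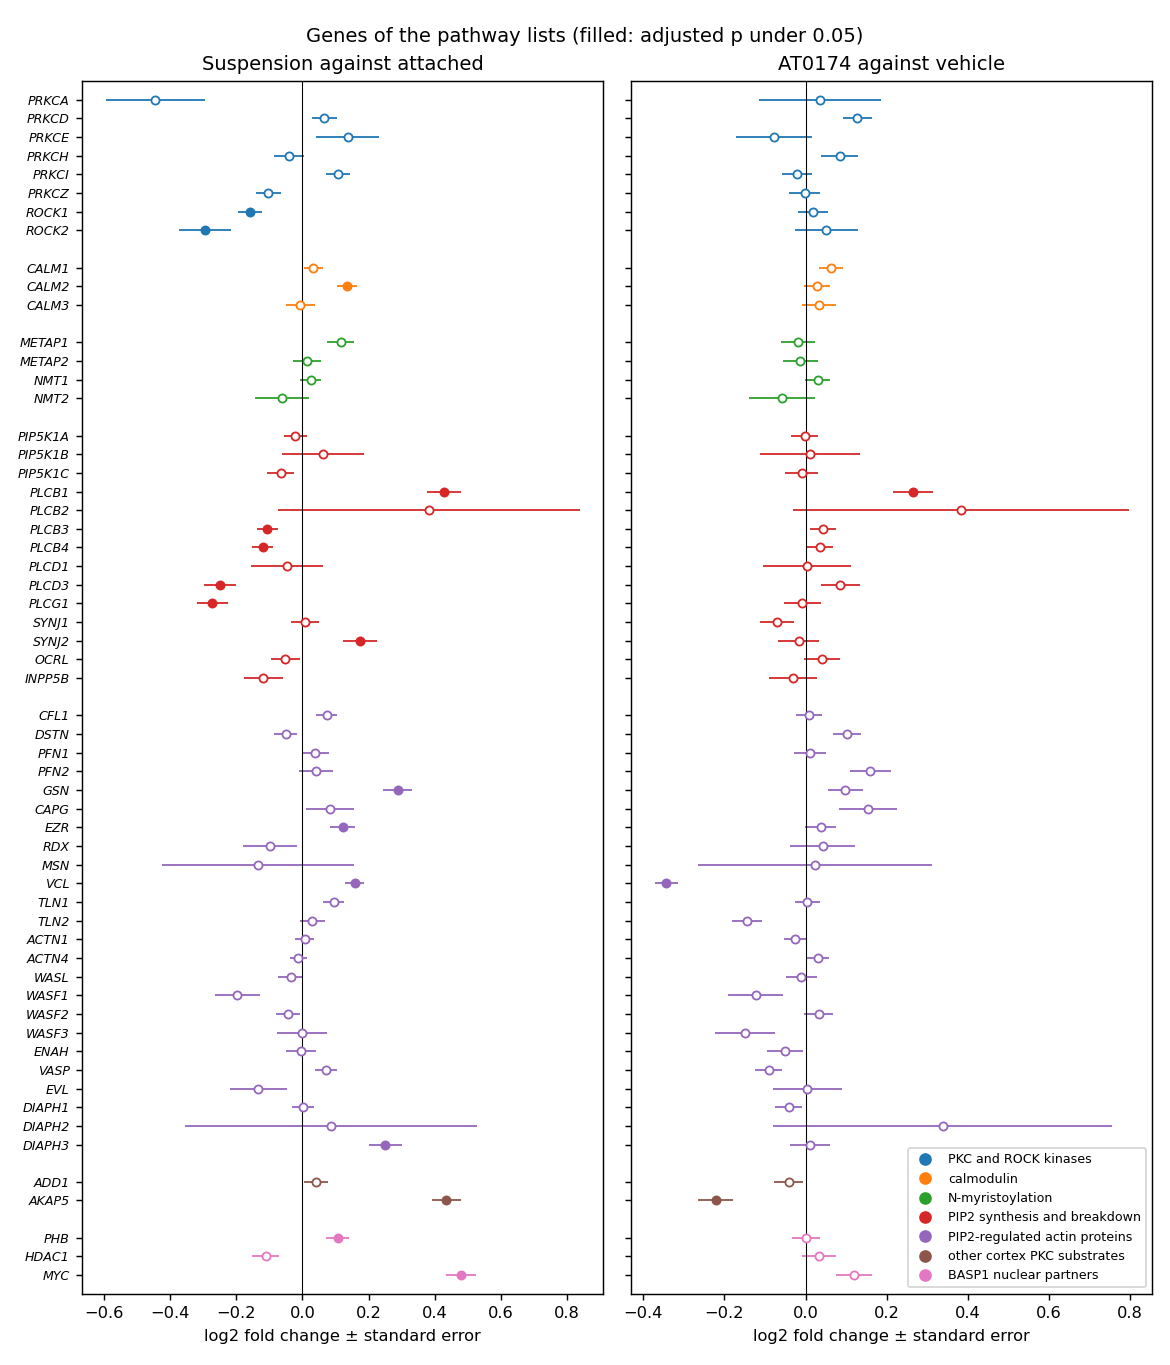
Log2 fold change ± standard error of the 58 tested list genes, grouped by role, in suspended against attached vehicle cells (left) and AT0174 against vehicle (right); filled points passed an adjusted p of 0.05. Values lie between −0.44 and 0.48 on the left, with 16 filled points, and 3 points are filled on the right.

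The genes whose levels were most like those of *BASP1* were *NRP1*, *PAPLN*, *CRIM1*, *COL12A1* and *LAMB1*. Likeness was measured as the root mean square difference of centered log2 CPM over the 9 libraries, among 12521 genes with a mean of at least 50 counts, and a small value means a similar profile. *NRP1* (neuropilin 1, a coreceptor of semaphorins and VEGF) was the nearest, at 0.218. It had 12.3, 11.5 and 10.4 CPM attached, 1.68, 1.20 and 1.59 CPM suspended with vehicle and 2.30, 1.91 and 2.02 CPM with AT0174. Its log2 fold changes were −2.94 in suspension and 0.48 with AT0174, beside −3.17 and 0.47 for *BASP1*. The next were farther away, *PAPLN* (papilin, of the extracellular matrix) at 0.473, *CRIM1* (a transmembrane protein that binds BMPs) at 0.491, *COL12A1* (collagen XII) at 0.620 and *LAMB1* (laminin beta 1) at 0.636. All 4 were lower in suspension, with log2 fold changes of −2.60, −2.14, −1.81 and −1.77. With AT0174 their values had both signs, −0.50 for *PAPLN* and *COL12A1*, 0.38 for *CRIM1* and 0.12 for *LAMB1*. As they were chosen for this pattern, the values carry no test.

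**Figure D5:**
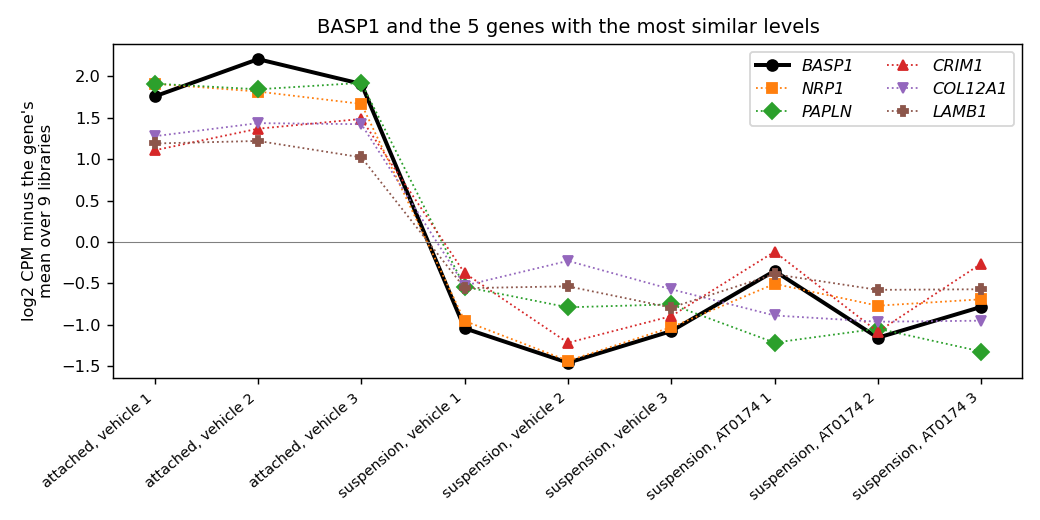
Log2 CPM minus the mean of each gene over the 9 libraries, for *BASP1* (solid black) and the 5 genes with the nearest profile (dotted), by library; lines join libraries only to guide the eye. All 6 genes are above 0 in the 3 attached libraries and below 0 in the 6 suspended ones, and *NRP1* runs closest to *BASP1*.

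The profiles of *MARCKS* and *MARCKSL1* varied little between libraries. The genes of nearest profile to *MARCKS* were *DNAJC15* (a mitochondrial cochaperone), *ATP6V1B2* (a subunit of the vacuolar proton pump) and *SQLE* (squalene epoxidase, of sterol synthesis), at 0.0152 to 0.0232. For *MARCKSL1* they were *JPT2*, *CIAO2A* (of cytosolic iron-sulfur assembly) and *TMED10* (a cargo receptor of the early secretory pathway), at 0.0166 to 0.018. Each of the latter was 1.084-fold to 1.102-fold higher in suspension, and as they were chosen for this profile, the values carry no test.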

How the data were processed

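RNA-seq was made from MDA-MB-453 cells in 3 conditions with 3 libraries each, as biological triplicates per the study's methods; p-values measure the spread between these libraries. The authors trimmed reads (Trim Galore 0.6.7, cutadapt 3.4), aligned them to GRCh38 (STAR 2.7.9a) and quantified transcripts (Salmon 1.10.1); the deposited files hold estimated counts per gene and, per transcript, estimated counts, TPM and lengths. Gene counts were rounded, filtered by filterByExpr (15528 of 59452 genes kept), TMM-scaled and fitted with edgeR 4.0.16 (quasi-likelihood, condition only, all 9 libraries), with Benjamini-Hochberg adjustment over all tested genes and a threshold of 0.05. The procedure was tested on simulated data. Positions, sequences and coding lengths came from GENCODE and RefSeq on GRCh38 (R 4.3.3, Python 3.11.15, Biopython 1.88, SciPy 1.17.1).

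The members, the gene lists and the tests were chosen with earlier results of these data known. Named genes were the members and their transcripts, gene models that overlap or adjoin them, up to 5 called genes per direction of each list with a mean of at least 50 counts, *GAP43*, all genes of lists with at most 4, and the 5, 3 and 3 genes of nearest profile. A few uncalled list genes (*PRKCA*, the *PIP5K1* genes) were added after their values were seen. Within groups, no libraries were duplicates (chi-square per gene of at least 3.06). Alternatives were DESeq2 1.42.0 (size factors and Wald test), limma-voom (limma 3.58.1), other filters, the 6 libraries of a contrast alone, a replicate block, counts rebuilt from TPM, and leaving out each library. The sequence before the other *BASP1* start is not reported here.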

Additional observations from a re-analysis of the deposited data

How the results depend on the processing

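Over 14 alternatives the log2 fold change of *BASP1* in suspension stayed between −3.27 and −3.04, that of *MARCKS* between −0.07 and −0.003 and that of *MARCKSL1* between 0.10 and 0.16. With AT0174, *BASP1* ranged from 0.23 to 0.65 (adjusted p 0.533 to 0.852), *MARCKS* from 0.04 to 0.09 (0.604 to 0.91) and *MARCKSL1* from 0.02 to 0.06 (0.79 to 0.999), and no sign changed. Counts of calls moved more. In suspension, 3297 genes and 16 list genes were called, and with counts rebuilt from TPM 1396 and 6. Leaving out 1 library gave 1935 to 2693 genes (the lowest 2 were 1935, when attached replicate 3 was dropped, and 1951, when it was suspended vehicle replicate 2) and 10 to 14 list genes (lowest on dropping suspended vehicle replicate 2). With AT0174, 121 genes were called, 239 with DESeq2, 499 with no filter on low counts and 31 with counts rebuilt from TPM, which left 1 of the 3 list genes. Leaving out any 1 library gave 63 to 86 genes and 1 to 2 list genes. The share of ENST00000322611 differed by 15.5 to 65.5 points. The 24 named genes called in suspension included genes of nearest profile, whose calls carry no test because they were chosen for their pattern. Of these 24, 15 missed the threshold in at least 1 alternative. With AT0174, *AKAP5* did so in 7 of 14 and *PLCB1* in 6, while *VCL* passed in all 14 (highest adjusted p 0.0451). None of these called genes changed sign. Named genes that were not called, other than the 3 members, were not followed individually under the alternatives. Uncalled list genes entered only the counts of calls. Except where a setting itself left fewer samples or other genes, the cause was not tested.

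Libraries with the same replicate number did not deviate together (correlations −0.0213 to 0.0488), so the numbers were not taken as pairs. With a replicate block, 3250 genes and 16 list genes were called in suspension and 146 and 3 with AT0174. Depth limits *BASP1*, which had 23 to 55 counts in suspended libraries.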
